A study of Mus musculus with 2 samples.

Results

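Some droplets of this thymus library held a deep transcriptome and almost no hashtag signal, so for nearly all of them no mouse could be named. These weakly tagged barcodes were chosen by 4 limits: at least 500 detected genes, under 15% mitochondrial UMIs, at least 10000 gene UMIs and under 150 UMIs summed over the 6 hashtags of the pool (UMIs are unique molecular identifiers, 1 per captured molecule). The limits left 284 weakly tagged barcodes among 1636 deep ones, out of 2527 barcodes past the gene and mitochondrial limits and 3447 in all. They were set against the 1193 deep barcodes with 500 or more hashtag UMIs, called strongly tagged here, while 159 deep barcodes with 150 or more and under 500 lay between. The hashtag sums of the members nearest the ceiling were 143, 144, 146, 146 and 147, and the nearest barcodes above it had 150, 150, 151, 151 and 151. The ceiling fell within a continuous range, with 105 deep barcodes at 100 or more and under 150 hashtag UMIs and 58 at 150 or more and under 200.

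The study pooled thymus cells of 6 female mice aged 6 weeks, from 3 inbred strains: 2 C57BL/6 (B6), 2 BALB/c and 2 NOD mice. CD45+ cells were depleted with magnets and the rest sorted as Pdpn-CD104-mTEClo, the low class II fraction of medullary thymic epithelial cells, which holds the mimetic cells that take on features of peripheral tissues. All 6 mice went into 1 gene expression library with a matched hashtag library, so the weakly and strongly tagged sets come from the same capture and neither has replicates. Whether the members come from the 6 tagged mice cannot be told from their hashtags and was not tested, which bears on each comparison of the sets. The strongly tagged set includes 331 barcodes that carried the tags of more than 1 mouse (hashtag doublets). The label of the second NOD hashtag repeats the replicate number of the first. Differences between the sets are therefore values with exact 95% intervals that cover counting error only, without p-values, and members that come from 1 animal cannot be recognised.

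A hashtag is an antibody carrying a short DNA barcode, and each mouse's cells are stained with a different one before pooling. Mouse hashtag antibodies are usually directed at CD45, the pan-leukocyte phosphatase encoded by Ptprc, and at MHC class I, a complex of a heavy chain (H2-K1, H2-D1) with beta-2 microglobulin (B2m) present on nearly all nucleated cells; the clones used here are not given in the sources used here. Dendritic cells, thymocytes and plasma cells are leukocytes that share the medulla with the epithelium.

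The barcode sequences of the 6 hashtags are shown because the members are defined by their low counts, and because they differ widely: each sequence has 15 bases, given 5′ to 3′ in capitals throughout as the whole run is the identifier, and the 15 pairs differ at 8 to 14 positions.
HT1 (B6 1): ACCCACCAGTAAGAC
HT2 (B6 2): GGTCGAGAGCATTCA
HT3 (BALB/c 1): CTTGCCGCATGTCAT
HT5 (BALB/c 2): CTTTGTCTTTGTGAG
HT6 (NOD 1): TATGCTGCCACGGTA
HT8 (NOD 2): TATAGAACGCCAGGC

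Members were chosen by a hashtag sum under 150, so their low sums follow from that choice and are given as a description. Within that cap the sums lay near the level that a strongly tagged droplet carried of other mice's tags. Weakly tagged barcodes had a median of 88 hashtag UMIs (6 to 147), against 4000 (505 to 33360) in strongly tagged ones. In the 862 strongly tagged barcodes that HTODemux, a caller of hashtag singlets and doublets, assigned to 1 mouse, the 5 hashtags of the other mice summed to a median of 91 UMIs (13 to 640). Tag by tag the picture was the same. HT5 had a median of 25 UMIs in members, 40 in barcodes assigned to another mouse and 4384.5 in barcodes assigned to BALB/c 2, and HT8 had 2, 3 and 1776. For each of the 6 tags the members' median was below that in barcodes assigned to another mouse, whose values have no such cap.

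**Figure D1:**
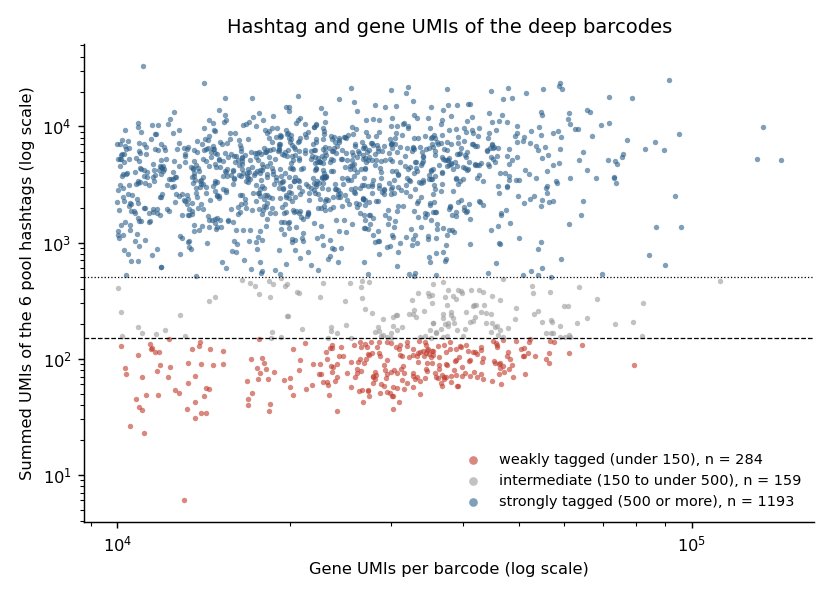
Gene UMIs (x axis) and summed pool hashtag UMIs (y axis) of every deep barcode, both on log scales, with lines at 150 and 500 hashtag UMIs. The 284 weakly tagged barcodes had a median of 88 hashtag UMIs and the 1193 strongly tagged ones a median of 4000, with gene UMIs from 10150 to 79533 and from 10001 to 143271.

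The leading hashtag took a median of 40.0% of a member's hashtag UMIs (23.4% to 86.7%), 54.2% in intermediate barcodes and 96.4% in strongly tagged barcodes. It was HT5 in 153 members, HT3 in 82, HT2 in 18, HT1 in 12, HT8 in 10 and HT6 in 9. The pooled hashtag UMIs of the members came from all 6 mice's tags in shares near those of the strongly tagged set: HT5 gave 33.9% against 37.3%, HT3 gave 26.5% against 22.4%, HT2 gave 13.8% against 16.9%, HT1 gave 10.9% against 13.2%, HT6 gave 9.84% against 6.75% and HT8 gave 5.11% against 3.46%. HTODemux called 270 members negative, 14 a singlet and 0 a doublet, against 862 singlets and 331 doublets in the strongly tagged set. The name "without assigned mouse" thus holds for 270 of the 284 members by that caller. Across the members the hashtag sum had a Spearman correlation of 0.30 with gene UMIs over 284 barcodes of the same library, given as a description.

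**Figure D2:**
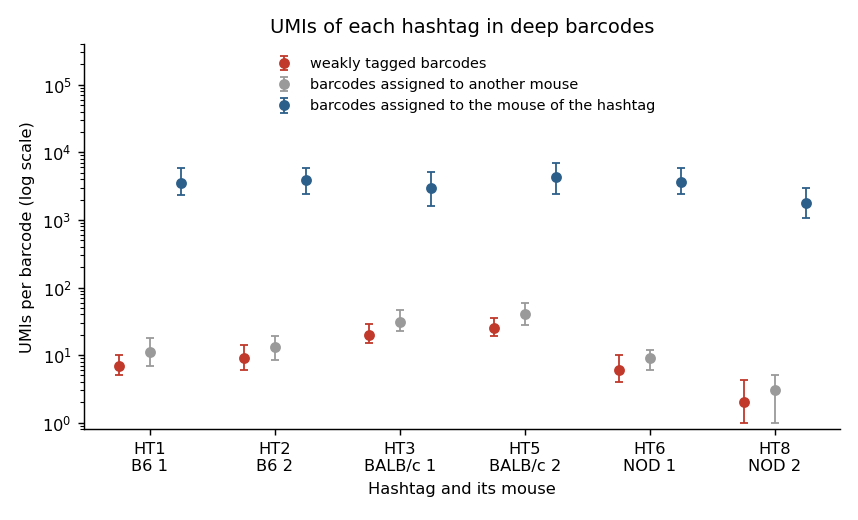
Median UMIs of each hashtag (log scale, bars from the lower to the upper quartile) in weakly tagged barcodes, in strongly tagged barcodes assigned to another mouse and in those assigned to the mouse of the hashtag. The members, chosen by a sum under 150, sit just below the barcodes of other mice for every tag, as for HT5 with 25 and 40 UMIs. They sit far below the 4384.5 UMIs of its own mouse.

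As droplets the members were at least as deep as the strongly tagged set. They held a median of 30042 gene UMIs against 22827, and 5081.5 detected genes against 5520. With every barcode thinned to 10000 UMIs the medians were 3089 and 3627 genes. Mitochondrial UMIs made up 0.770% against 1.64%. Scrublet, which scores doublets from gene counts, called 0 members and 4 strongly tagged barcodes, and only 6 of all 2527, too few for its calls to be relied on. Xist, the X-inactivation RNA of female cells, had a UMI in 281 of 284 members and in 1183 of 1193 strongly tagged barcodes, and the 4 Y-linked genes Ddx3y, Eif2s3y, Uty and Kdm5d gave 11 UMIs in all members together and 30 in the strongly tagged set.

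Most members were leukocytes by their markers. Clustering of gene counts without the hashtags put 194 of 284 members, 68.3% (interval 62.6 to 73.7), in clusters named after a leukocyte type, against 62 of 1193 strongly tagged barcodes, 5.20% (4.01 to 6.61). With cluster 15, which has Ptprc in all its barcodes but was left unnamed, the counts were 200 members, 70.4% (64.7 to 75.7), against 64, 5.36% (4.16 to 6.80). Weighted to the members' depth, the share in the strongly tagged set was 6.65%. The makeup is that of the droplets recovered after CD45 depletion and sorting, and not of the thymus.

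The largest group was type 1 dendritic cell-like, cells known for cross-presenting antigen to CD8 T cells. It held 94 members, 33.1% of them (27.7 to 38.9), against 16 strongly tagged barcodes, 1.34% (0.768 to 2.17). All 9 markers on its list were raised in the cluster, among them Xcr1, the receptor for the chemokine XCL1, Clec9a, a receptor for actin of dead cells, and Irf8, a transcription factor the lineage needs. In the 94 members Irf8 stood at 1684 CPM (UMIs of the gene per 1000000 gene UMIs of the summed set), Wdfy4 at 1113, Xcr1 at 452, Clec9a at 204 and Batf3 at 167, and in the 16 strongly tagged barcodes of the same cluster these stood at 1018.5, 1197, 238, 169 and 129 CPM. Cd207 (langerin), a lectin of Langerhans cells and of some type 1 dendritic cells, was 17.3 times as high per summed UMI over all members as over the strongly tagged set (16.1 to 18.7).

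Another 38 members, 13.4% (9.65 to 17.9), were other myeloid or dendritic cell-like, against 13 strongly tagged, 1.09% (0.581 to 1.86). This cluster raised all 10 general dendritic markers and was led by Clec7a, Mmp12, C1qc and Ccl17, so it may hold more than 1 myeloid type. The complement gene C1qa was at 89.4 CPM in its members and 681 CPM in its strongly tagged barcodes, and C1qb at 21.6 and 570 CPM. Activated dendritic cell-like barcodes, with the migration receptor Ccr7 at 1694 CPM in members and 1263 CPM in strongly tagged ones, numbered 5 and 4.

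Thymocyte-like barcodes numbered 31 among the members, 10.9% (7.54 to 15.1), against 4 strongly tagged, 0.335% (0.0914 to 0.856). Cd3d, a signalling chain of the T cell receptor complex, stood at 1292 CPM in these members and 591 CPM in the strongly tagged ones, Dntt, the polymerase that adds bases at receptor joints, at 694 and 804 CPM, and Cd8a at 455 and 355 CPM. Of the 31, 27 lay in a cluster with all 10 proliferation markers raised, led by Trdc, the constant region of the delta chain. Cluster 15, with 10 of 14 thymocyte markers raised but led by Icos and Cd40lg and left unnamed, held 6 members and 2 strongly tagged barcodes. Plasma cell-like barcodes, which secrete antibody, numbered 26, 9.15% of members (6.07 to 13.1), against 22, 1.84% (1.16 to 2.78). Jchain, which joins IgA and IgM into polymers, stood at 38958 CPM in these members and 32386 CPM in the strongly tagged ones, and Igha, the IgA heavy chain, at 117609 and 82707 CPM.

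The remaining 90 members lay in epithelial, muscle-like and unnamed clusters, 6 of them in cluster 15. Proliferating-like barcodes, with all 10 proliferation markers and 4 of 7 markers of the Aire stage raised, numbered 41, 14.4% (10.6 to 19.1), against 92, 7.71% (6.26 to 9.37). In the 41 members Aire, the regulator of tissue antigen expression, stood at 218 CPM and Fezf2 at 519 CPM, against 243 and 371 CPM in the 92 strongly tagged ones. Tuft-like barcodes, taste-cell-like chemosensory cells marked by the kinase Dclk1 and the factor Pou2f3, numbered 18, 6.34% (3.80 to 9.83), against 193, 16.2% (14.1 to 18.4). Dclk1 stood at 1201 and 1127 CPM and Pou2f3 at 291 and 297 CPM in these 2 groups. Keratinocyte-like, ciliated-like, neuroendocrine-like and secretory-like or enterocyte-hepatocyte-like clusters gave 2, 1, 1 and 2 members, against 101, 85, 73 and 78 strongly tagged barcodes. Immature mTEC-like barcodes numbered 0 and 23, and 0 of 284 members has an upper bound of 1.29%.

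Within a class, the share that was weakly tagged spanned nearly the whole scale. It was 83.8% of thymocyte-like deep barcodes (31 of 37, interval 68.0 to 93.8), 59.9% of type 1 dendritic cell-like (94 of 157, 51.8 to 67.6), 54.3% of other myeloid or dendritic cell-like (38 of 70, 41.9 to 66.3) and 38.2% of plasma cell-like (26 of 68, 26.7 to 50.8). It was 27.5% of proliferating-like (41 of 149, 20.5 to 35.4) and 7.86% of tuft-like (18 of 229, 4.72 to 12.1). The proliferating-like share was 18.3% with a finer clustering and 18.8% with a hashtag ceiling of 100. Ciliated-like deep barcodes had 1.12% (1 of 89, 0.0284 to 6.10) and keratinocyte-like had 1.90% (2 of 105, 0.232 to 6.71). The intervals of the first 3 of these lay above those of all epithelial classes with 20 or more deep barcodes, and that of the proliferating-like class lay above the tuft-like one.

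**Figure D3:**
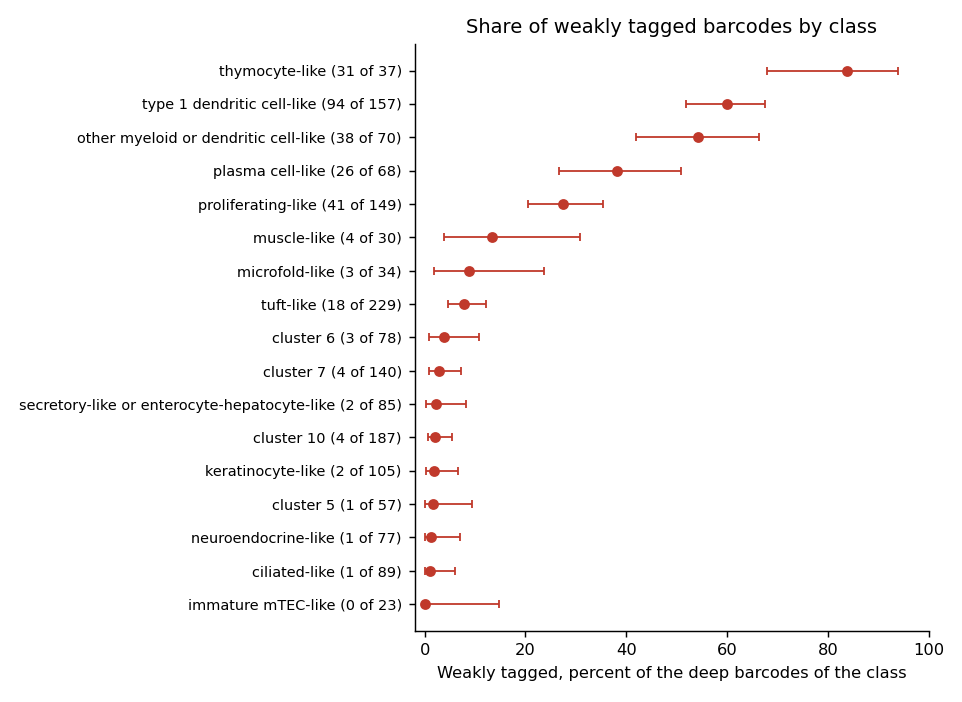
Percent of the deep barcodes of each class that were weakly tagged, for classes with 20 or more deep barcodes; points are the share and bars the exact 95% binomial interval, with members and deep barcodes in parentheses. Thymocyte-like (83.8%) and type 1 dendritic cell-like (59.9%) barcodes stand at the top and the epithelial classes other than the proliferating-like one (27.5%) near the bottom.

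Hashtag sums of the dendritic cell-like barcodes had no gap at the ceiling. Of the 157 type 1 dendritic cell-like barcodes, 57 had under 100 hashtag UMIs, 37 had 100 to 150, 17 had 150 to 200, 30 had 200 to 500, 5 had 500 to 1000 and 11 had more, with the upper end of each band left out. Of the 149 proliferating-like barcodes, 41 were under 150, 16 lay from 150 to 500, 5 from 500 to 1000 and 87 above that. Set beside the tags of other mice in strongly tagged singlets of the same class, which unlike the members' sums are not capped by the ceiling, the medians were 90.5 against 139 UMIs for type 1 dendritic cell-like, 88 against 107 for proliferating-like, 105 against 181.5 for plasma cell-like and 75 against 80.5 for tuft-like barcodes.

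Of the usual hashtag targets, the class I transcripts were near the strongly tagged level over all members and Ptprc was higher. By class they were lower or higher. Over the whole sets H2-K1 (chromosome 17, 33996017 to 34000347, mm10) stood at 2474 CPM against 2392, a ratio of 1.03 (interval 1.02 to 1.05), and H2-D1 at 4176 CPM against 3868, a ratio of 1.08 (1.07 to 1.09). B2m (chromosome 2, 122147686 to 122153083) stood at 2850 CPM against 3400, a ratio of 0.838 (0.827 to 0.850). Ptprc (chromosome 1, 138062861 to 138175708) stood at 249 CPM against 29.6, 8.42 times as high (7.79 to 9.09). With every barcode thinned to 10000 UMIs the H2-K1 log2 ratio was −0.06 rather than 0.05. That of B2m was 0.11 under TMM scaling rather than −0.25, so neither direction is firm. Both heavy chain genes varied with strain among strongly tagged singlets of all classes. The BALB/c pair stood highest for H2-D1, at 5190 and 4941 CPM, with every other mouse between 2465 and 3088. For H2-K1 that pair stood lowest, at 2229 and 1998 CPM, with every other mouse between 2323 and 3333. Members have no assigned strain, so its part in the H2-K1 and H2-D1 ratios, over the sets or within classes, was not tested.

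Within classes the ratios went both ways. In type 1 dendritic cell-like barcodes H2-K1 was at 2923 CPM in members, 3011 CPM in intermediate and 2270 CPM in strongly tagged ones, and Ptprc at 403, 341 and 304 CPM. In proliferating-like barcodes H2-K1 was at 3567 CPM in members against 2170 in strongly tagged ones, a ratio of 1.64 (1.59 to 1.70), and H2-D1 at 5756 against 3534 CPM, a ratio of 1.63 (1.59 to 1.67). Each of those members' levels was above that of all 6 mice in strongly tagged proliferating-like singlets, where H2-K1 ranged from 1889 to 2670 CPM and H2-D1 from 2504 to 5326 CPM. B2m did not differ there beyond counting error, at 3627 and 3631 CPM. In plasma cell-like barcodes H2-K1 was at 1683 CPM in members against 2345 in strongly tagged ones (ratio 0.718, 0.675 to 0.763), and the ratio of H2-D1 was 0.659 (0.624 to 0.695). Other myeloid or dendritic cell-like members were lower too, with ratios of 0.721 (0.677 to 0.768) for H2-K1 and 0.809 (0.768 to 0.853) for H2-D1. In tuft-like members H2-K1 had a ratio of 1.24 (1.14 to 1.34), H2-D1 one of 0.788 (0.745 to 0.832) and B2m one of 0.671 (0.614 to 0.731).

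The lowest class I levels among the classes with 5 or more members were in thymocyte-like members and cluster 15. Thymocyte-like members held 32 H2-K1 UMIs in all, 39.5 CPM (27.0 to 55.7), against 473 CPM (338 to 644) in the 4 strongly tagged thymocyte-like barcodes, and B2m stood at 258 against 639 CPM. Ptprc was at 359 CPM in the members and 272 CPM in the strongly tagged ones. The 6 members of cluster 15 had H2-K1 at 302 CPM (187 to 462), H2-D1 at 719 CPM (534 to 948), B2m at 1021 CPM (798 to 1288) and Ptprc at 1568 CPM (1288 to 1892). The level of surface protein, which the antibody meets, was not measured apart from the hashtags themselves, and its part in these counts was not tested.

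Where barcodes could be given a mouse, the same measures were compared between classes with the mouse as replicate. These barcodes are not members, and they were kept by their hashtag level, so hashtag differences between classes are given as a description without a test. In 5 classes with at least 3 singlets in every mouse, the class value less that of the mouse's other barcodes was tested by a 2-sided exact sign-flip permutation test over 6 mice, whose smallest possible p is 0.03125, with 25 tests adjusted together, 5 of them on hashtag UMIs. The 5 on hashtag UMIs entered the adjustment but are not read as tests, since hashtag level chose the barcodes. None of the gene tests passed an adjusted p of 0.05. Hashtag UMIs of tuft-like barcodes were lower than the rest in 5 of 6 mice, with a mean log2 difference of −1.11 ± 0.67 (SD, n = 6 mice), and H2-K1 was lower in 6 of 6, by −0.68 ± 0.54 (exact p = 0.03125, adjusted 0.0977). Hashtag UMIs of keratinocyte-like barcodes were higher in 6 of 6 mice, by 0.56 ± 0.40, while H2-D1 was lower in 6 of 6, by −0.74 ± 0.36 (exact p = 0.03125, adjusted 0.0977). For proliferating-like barcodes the hashtag difference was 0.14 ± 1.16, higher in 5 of 6 mice.

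Across all genes the sets differed as their classes did. Of 11314 genes with at least 10 CPM in the higher set, 1033 (9.13%) were at least 2-fold higher in the members and 3191 (28.2%) at least 2-fold lower, in either direction 37.3%, on log2 ratios with 1 CPM added. TMM scaling put the typical gene at −0.37 on the log2 scale and changed the split to 1512 higher and 2165 lower. By these values all 9 measured thymocyte genes were at least 2-fold higher in the members, 8 of 9 type 1 dendritic genes, 9 of 10 general dendritic genes and 9 of 10 MHC class II genes. At least 2-fold lower were 13 of 14 tuft, 11 of 12 keratinocyte, 10 of 11 pan-epithelial and 10 of 11 measured ciliated genes. These lists follow the class makeup and are not separate evidence of it. Of the 8 measured nonclassical class I genes 0 were higher and 2 lower, H2-Q7 at 127 against 380 CPM and H2-T22 at 55.5 against 119 CPM. Of 11 class I loading genes 2 were higher, the immunoproteasome subunits Psmb8 at 735 against 334 CPM and Psmb9 at 579 against 250 CPM. Of 11 immediate early and heat shock genes, markers of dissociation stress, 0 were higher and 1 lower, Hspa1b at 164 against 342 CPM.

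The largest ratios belonged to T cell and type 1 dendritic genes. Trdc had 474 UMIs in members and 18 in strongly tagged barcodes, 98.7 times as high in CPM (61.8 to 168), Dntt was 29.4 times as high (22.98 to 38.0), Cd3d 26.6 times (22.5 to 31.6), Trbc1 26.2 times (23.3 to 29.4), Gzma 24.6 times (20.3 to 29.9), Cd3g 24.2 times (20.5 to 28.8), Xcr1 23.96 times (20.8 to 27.7) and Trbc2 20.2 times (18.3 to 22.3). Septin3, Gm6377, Timd4, Cd207, Jaml and Havcr2, which encodes the inhibitory receptor TIM-3, followed at 16.9 to 20.8 times. Ighe, the IgE heavy chain, had the largest ratio, with 3393 UMIs against 82, but 3390 of those came from 1 plasma cell-like barcode. At the low end stood Spink1, a trypsin inhibitor, at 1.97 against 370 CPM, Scgb1a1, the club cell secretoglobin, at 0.580 against 157 CPM, Krt16 at 1.86 against 270 CPM and Lcn2 at 0.348 against 127 CPM. Stxbp5l, Bpifa1, Cstdc5, Spink12 and Saa1 were among the lowest too, each at 1 to 10 UMIs over all members.

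The sets also differed in RNA assigned to processed pseudogenes, intronless copies of genes, 9932 of which are listed in GENCODE M21. This measure was chosen after values were seen, and its values over the whole sets mix classes. Processed pseudogenes took a median of 0.899% of gene UMIs in members (quartiles 0.707 and 1.05), 0.731% in intermediate and 0.208% in strongly tagged barcodes. Among singlets the medians were 0.308% and 0.294% for the NOD mice, 0.238% and 0.249% for BALB/c and 0.112% and 0.108% for B6. Of 83 processed pseudogenes measured, 47 were at least 2-fold higher in the members, 56.6%, against 9.13% of all genes, and 11 at least 2-fold lower. Within plasma cell-like barcodes 3 of 55 were higher, 5.45%, against 1.65% of all genes there. There 5 were lower, 9.09%, against 35.2% of all genes.

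The medians of the pseudogene share lay further apart within 2 epithelial classes than within the dendritic and plasma cell-like ones. The 3 microfold-like members did not share it, with 0.101% against 0.0909%. Proliferating-like members had a median of 0.996% (0.211 to 1.20), against 0.386% in strongly tagged ones, and tuft-like members 0.603% against 0.211%. Type 1 dendritic cell-like members had 0.922% against 0.729%, other myeloid or dendritic cell-like 0.902% against 0.829%, thymocyte-like 1.19% against 0.392% over 4 barcodes, and plasma cell-like 0.397% against 0.360%. Of the 18 tuft-like members, 9 lay above the highest of 126 tuft-like singlets (0.606%). Of the 41 proliferating-like members, 0 lay above the highest of 69 proliferating-like singlets (1.22%), while 2 of those singlets lay above the members' median. By hashtag band, proliferating-like barcodes had medians of 0.974% at 50 to 100 hashtag UMIs, 1.02% at 100 to 150, 1.06% at 150 to 200 and again at 200 to 500, 0.447% at 500 to 1000 and 0.385% above.

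**Figure D4:**
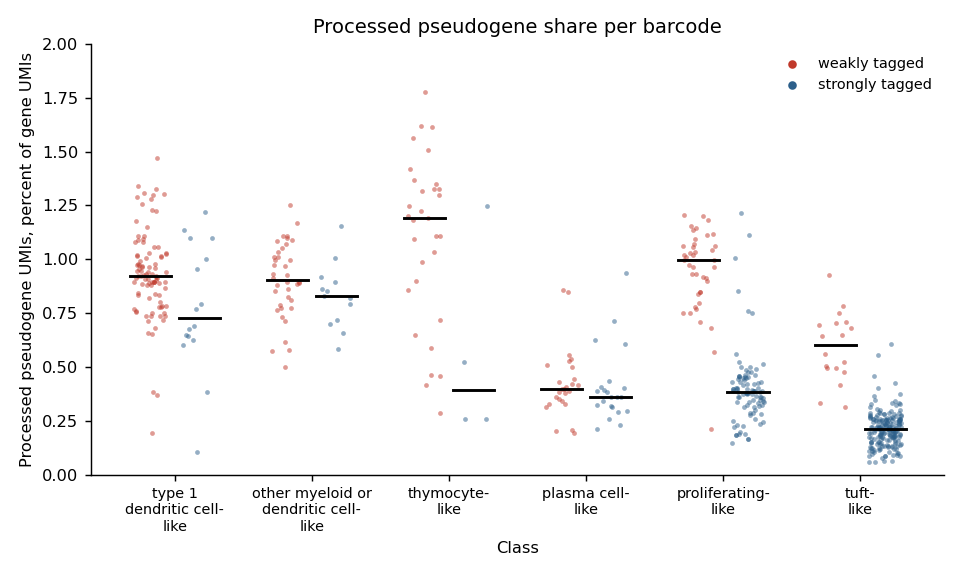
Processed pseudogene UMIs as a percent of gene UMIs for each weakly (left) and strongly tagged (right) deep barcode in 6 classes, with the median as a black line. The ranges overlap in all 6 classes, and the medians lie furthest apart in the thymocyte-like (1.19% and 0.392%), proliferating-like (0.996% and 0.386%) and tuft-like (0.603% and 0.211%) ones.

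Over the whole sets some single transcripts were present in nearly all members and in few barcodes of the 6 mice. Others were rare in members and common in some of the mice. The 8 described were chosen after values were seen. These shares mix classes, as leukocyte-like classes made up 68.3% of members and 5.20% of the strongly tagged set. Gm15710, a processed pseudogene on chromosome 5 (92140294 to 92140929, minus strand, mm10), had a UMI in 275 of 284 members, 96.8%, against 159 of 1193 strongly tagged barcodes, 13.3%, and its level was 1318 against 117 CPM. Among assigned singlets its share ran from 7.96% in B6 1 to 18.8% in NOD 1. Rps13-ps1 (chromosome 8, 87047689 to 87048226), a copy of a ribosomal protein gene, had a UMI in 96.5% against 12.2%, while its parent Rps13 stood at 1287 against 1144 CPM. Psma5-ps, a copy of a proteasome subunit gene, had a UMI in 82.7% against 6.20%, with Psma5 at 54.6 against 124 CPM. Gm13341 and Gm13339, a pair of unprocessed pseudogenes on chromosome 2 between positions 22587291 and 22590533, had a UMI in 97.2% and 95.8% of members against 11.1% and 9.47%. Within plasma cell-like barcodes Gm13341 was found in 92.3% of members and 100% of strongly tagged ones, within proliferating-like ones in 100% and 13.0%.

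Iigp1 and Tmem181c-ps were rare in members. Iigp1, an interferon-inducible GTPase on chromosome 18, had 1 UMI in each of 3 members, 1.06%, against 491 strongly tagged barcodes, 41.2%. Singlets of the NOD mice had it in 72.5% and 54.5%, those of the BALB/c mice in 47.4% and 45.6% and those of the B6 mice in 18.6% and 19.8%. Tmem181c-ps, an unprocessed pseudogene on chromosome 17, had a UMI in 5.28% of members against 54.2%. Among singlets it was found in 90.9% and 83.8% of those from the BALB/c mice, against 4.35% and 2.27% for NOD and 0% and 1.53% for B6.

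**Figure D5:**
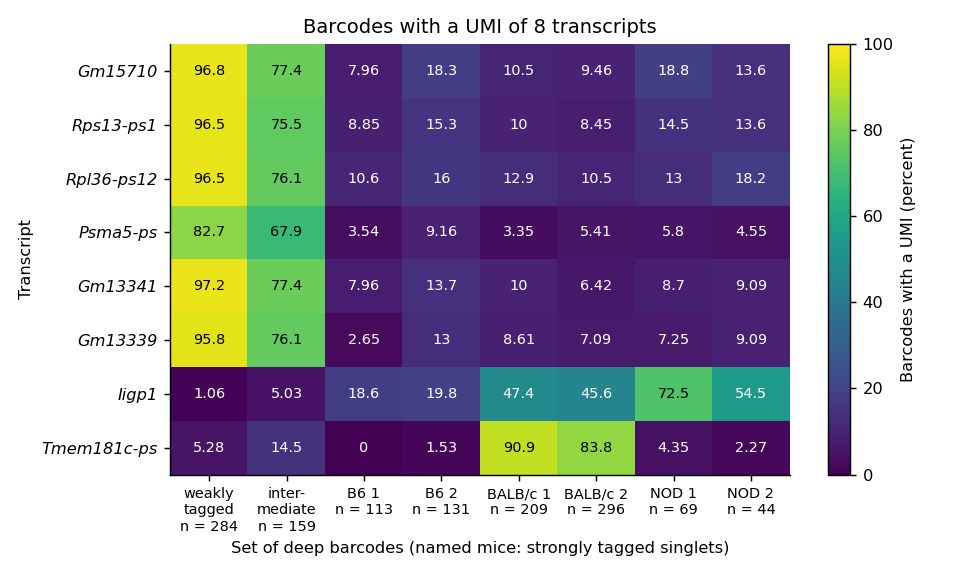
Percent of barcodes with at least 1 UMI of 8 transcripts (rows) in weakly tagged, intermediate and, for each mouse, strongly tagged singlet barcodes (columns, with the number of barcodes). The 6 upper transcripts were found in 82.7% to 97.2% of members and in at most 18.8% of any mouse's barcodes, and Iigp1 in 1.06% of members and 18.6% to 72.5% of the mice's barcodes.

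Counted per barcode, the combination restates these shares: 271 of 284 members had at least 3 of the 4 processed pseudogenes named next and 267 had neither of the 2 rare transcripts. At least 3 of the 4 processed pseudogenes Gm15710, Rps13-ps1, Rpl36-ps12 and Psma5-ps with neither Iigp1 nor Tmem181c-ps was found in 257 of 284 members, 90.5% (86.5 to 93.6), in 110 of 159 intermediate barcodes, 69.2% (61.4 to 76.3), and in 41 of 1193 strongly tagged ones, 3.44% (2.48 to 4.63). Among singlets of the 6 mice the share ran from 1.01% in BALB/c 2 to 7.63% in B6 2. It was 95.7% of type 1 dendritic cell-like members (90 of 94) and 62.5% of strongly tagged ones (10 of 16), and 26 of 26 plasma cell-like members against 9 of 22. For epithelial classes it was 37 of 41 proliferating-like members against 5 of 92, and 16 of 18 tuft-like members against 2 of 193. At least 3 of the 4 pseudogenes alone were as common in some strongly tagged leukocyte-like classes as in members. They were found in 15 of 16 type 1 dendritic cell-like, 13 of 13 other myeloid or dendritic cell-like and 21 of 22 plasma cell-like barcodes. The members' counts there were 93 of 94, 38 of 38 and 26 of 26. In strongly tagged epithelial classes it was 10 of 92 proliferating-like and 4 of 193 tuft-like, against 40 of 41 and 18 of 18 members.

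Mitochondrial transcripts were unevenly lower. Of 12 measured mitochondrially encoded genes, 7 were at least 2-fold lower in the members and 0 higher. mt-Co1 stood at 86.9 against 839 CPM, a ratio of 0.104 (0.0962 to 0.111), while mt-Cytb stood at 2172 against 3510 CPM, a ratio of 0.619 (0.609 to 0.629). Within proliferating-like barcodes mt-Co1 was at 62.1 against 436 CPM and mt-Cytb at 2912 against 2411 CPM. Summed mitochondrial genes exceeded Gm13341 and Gm13339, copies of mitochondrial sequence, 9.03-fold in members and 222-fold in strongly tagged barcodes, and 133-fold to 412-fold among the 6 mice. The gap varied by class. It was 7.55-fold against 11.3-fold in other myeloid or dendritic cell-like barcodes and 7.58-fold against 16.0-fold in type 1 dendritic cell-like ones. Plasma cell-like barcodes had 9.87-fold against 29.9-fold, proliferating-like ones 8.85-fold against 109.5-fold and tuft-like ones 9.46-fold against 525-fold. How the reads were shared between near-identical copies was set by the alignment and was not tested.

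H2-Ea (chromosome 17, 34341959 to 34344645, minus strand), the gene named as the members' marker, listed as a polymorphic pseudogene, encodes the alpha chain of the class II molecule I-E, which B6 and NOD mice are known to lack and BALB/c mice to express. It had a UMI in 211 of 284 members, 74.3%, against 636 of 1193 strongly tagged barcodes, 53.3%, at 4183 against 731 CPM, 5.72 times as high (5.63 to 5.82). It did not mark the members as a whole: it was found in 100% of type 1 dendritic cell-like, 95.1% of proliferating-like, 46.2% of plasma cell-like, 16.7% of tuft-like and 12.9% of thymocyte-like members. Proliferating-like members had 1910 CPM, against 2312 and 2326 CPM in the BALB/c mice, 516 and 536 CPM in the B6 mice over 4 barcodes each, and 11.1 and 5.25 CPM in the NOD mice. Type 1 dendritic cell-like members had 7876 CPM, against 5133 CPM in the strongly tagged ones.

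Transcripts found in only 1 strain among assigned barcodes (at least 20 CPM in both of its mice and under 1 CPM in the other 4) were then counted in the epithelial members. The 3 NOD transcripts Gm11942, Zfp979 and BC023719 summed to 1.29 CPM in proliferating-like members (2 UMIs), against 378 and 347 CPM in the NOD mice. The B6 transcripts Skint3, Trim12a, Akr1c21 and 3 others summed to 4.74 CPM in members of the tuft-like clusters and cluster 10 (2 UMIs in 22 barcodes), against 436 and 404 CPM in the B6 mice. The BALB/c transcripts were few: Ifi44l and Ckm summed to 7.11 CPM in proliferating-like members (3.55 to 12.7), against 15.7 and 16.5 CPM in the BALB/c mice, and Ifi44l and Meg3 to 7.12 CPM in the tuft-like clusters and cluster 10, against 90.6 and 26.4 CPM. Ckm and Meg3 were among the leading genes of the muscle-like cluster, whose assigned barcodes came only from the BALB/c mice, 7 and 12. For these 2 genes strain cannot be told apart from class makeup. Tmem181c-ps, found in 90.9% and 83.8% of BALB/c singlets of all classes, was found in 5.28% of members of all classes. Within proliferating-like barcodes it was found in 4.88% of members and in 41.3% of strongly tagged ones of all mice. Its level in the BALB/c mice varied by class, at 72.5 and 43.1 CPM in proliferating-like and 274 and 295 CPM in tuft-like singlets. The strain of the members was not assigned from these values.

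Within proliferating-like barcodes, where the 2 sets share a class name, 919 of 10129 genes (9.07%) were at least 2-fold higher in the members. Another 730 (7.21%) were at least 2-fold lower, in either direction 16.3%. Makeup and strain may still differ within the name. Wfdc18 stood at 1621 CPM in members against 5023 CPM in strongly tagged singlets, Ccl21a at 561 against 1597 CPM and Krt8 at 1518 against 987 CPM. With the 69 hashtag singlets of the 92 strongly tagged barcodes alone, a choice made after the data were seen, 1006 were higher and 737 lower. Of 98 processed pseudogenes measured there, 50 were higher and 12 lower. Among the lower ones was Gm15772, with 1 UMI in members against 1793, found in 56.5% of strongly tagged barcodes. Ighg3, the IgG3 heavy chain, stood at 1.29 CPM in members against 1697 CPM, but at 0.754 CPM in the hashtag singlets alone. The 92 strongly tagged barcodes held 6775 Ighg3 UMIs, and the highest strongly tagged barcode held 6772, so its low ratio rests on 1 hashtag doublet. Iigp1 stood at 1.29 against 157 CPM and Skint7, a butyrophilin-like gene of the Skint family, at 0.646 against 98.0 CPM. The largest ratios went to transcripts with 0 or 1 UMI in the 92 strongly tagged barcodes, among them the tissue antigens Reg3b with 146 UMIs, Mucl1 with 115 and Rhox1 with 94 in members. Each of these 3 was found in 1 of the 41 members, 2.44%. Such antigens are made by few medullary cells each. The immunoglobulin segment Ighv4-2, with 165 UMIs and the largest ratio, and Stfa1, with 95, were also found in 2.44% of members. Ppp1r27, with 111 UMIs, was found in 12.2% of members and in 0% of the strongly tagged barcodes. In plasma cell-like barcodes 122 of 7389 genes (1.65%) were higher and 2602 (35.2%) lower, in either direction 36.9%. Of the 22 strongly tagged barcodes there, 10 were hashtag singlets and 12 were not, and with the 10 alone 228 genes were higher and 2411 lower. Epithelial genes led the low end, such as Wfdc18 at 9.18 against 2473 CPM and Ccl21a at 3.06 against 801 CPM, and against 813 and 891 CPM in the 10 singlets. Krt8 was at 8.16 CPM in plasma cell-like members and 312 CPM in strongly tagged ones (221 CPM in singlets), and Epcam at 171 and 365 CPM.

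Epcam, an adhesion molecule of epithelia that some dendritic cells also carry, was found in many leukocyte-like members. It had a UMI in 97.9% of type 1 dendritic cell-like members, at 272 CPM, and in 97.4% of other myeloid or dendritic cell-like ones, at 946 CPM, while the keratin Krt8 was at 13.2 and 10.3 CPM. Thymocyte-like members, of a type that should lack Epcam, had it in 6.45%, at 4.93 CPM. In strongly tagged type 1 dendritic cell-like barcodes Epcam was at 323 CPM and Krt8 at 155 CPM. The part of epithelial RNA in these values was not tested.

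Hashtags outside the pool differed between the whole sets, and not in the same direction in every class. The matrix holds 9 further hashtag features, with 9911 UMIs over all barcodes, against 11083995 for the 6 of the pool. HT9 gave 1294 UMIs in members, 4.56 per barcode, against 527, 0.442 per barcode, in the strongly tagged set, and HT12 gave 769, 2.71 per barcode, against 947, 0.794 per barcode. At least 5 HT9 UMIs were found in 46 members, 16.2% (12.1 to 21.01), against 19 strongly tagged barcodes, 1.59% (0.962 to 2.48), and at least 5 HT12 UMIs in 40, 14.1% (10.3 to 18.7), against 29, 2.43% (1.64 to 3.47). No member had both, and 14 members had more UMIs of HT9 or HT12 than of any pool hashtag, against 0 strongly tagged barcodes. HT4 went the other way, with 4 UMIs in members and 1484 in the strongly tagged set, where 114 of the 123 barcodes with at least 5 were led by HT3. The 198 members with neither HT9 nor HT12 had a processed pseudogene median of 0.905%, against 0.891% and 0.897% in those with HT9 and HT12. The labels do not say what HT4, HT9 and HT12 marked.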

How the data were processed

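The deposited matrix holds raw UMI counts per gene or hashtag and barcode, which the authors obtained through Cell Ranger 7.0.0 (mm10), per the file headers and the submitters' processing notes, from 1 pooled 10x 3' gene expression and feature barcode capture; the annotation release is not given in the sources used here. How Cell Ranger assigned reads shared by near-identical copies bears on the pseudogene and mitochondrial counts. Summed gene UMIs came to 8618657 for the weakly and 32294381 for the strongly tagged set, and precision is limited by counting alone in the intervals given.

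From these counts, hashtags were called with HTODemux (Seurat 5.3.0, quantile 0.99, R 4.3.3). Barcodes were clustered with Leiden (scanpy 1.11.5) on 2000 variable protein-coding genes, 30 components and 15 neighbours at resolution 1, giving 23 clusters. A cluster took the name of the marker list with the largest share of genes raised, with at least 3 raised. A dendritic subset needed 80% of its list, and the proliferating name was given where no other list reached 60%; these shares were set after the clusters were seen, so names may differ from the study's. A cluster stayed unnamed where another list had more genes among its 10 leading ones, or where it was far shallower than the library and no marker led it, as for cluster 15. Scrublet marked 6 doublets of 2527, which were kept, as were hashtag doublets in the strongly tagged set. Gene types and positions came from GENCODE M21, which matched 54435 of 55487 IDs and is on mm10; hashtag sequences came from the deposited feature list.

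Sets were compared as CPM of summed counts with exact Poisson 95% intervals, and as shares with Clopper-Pearson intervals. A gene counted as different at 2-fold or more with at least 10 CPM in the higher set and 1 CPM added to both in the ratio. Named genes are the 15 largest and 10 smallest ratios at 50 CPM or more, the 6 of each kind within classes holding 20 barcodes of both sets, and the hashtag target genes. Members and lists were chosen with earlier results of these data known, and the pseudogene share, the 8 transcripts, their joint pattern, the mitochondrial and immunoglobulin genes, the Y-linked genes and the hashtags outside the pool were chosen after values were seen. Mouse tests used scipy 1.17.1, with class and rest paired within each mouse because both come from the same animal. Alternatives covered the hashtag ceiling, depth, mitochondrial bound, clustering, scaling and each mouse left out. The comparison code was tested on simulated data.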

Additional observations from a re-analysis of the deposited data

Results flagged for a closer look

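In the comparison of classes within assigned mice, 4 of 29 groups of mice had 1 mouse standing apart from the other 5, where chance alone gives about 1 in 20 groups. The groups reuse the same mice and are not independent, and an excess over that rate was not tested. Hashtag UMIs of proliferating-like barcodes less those of the mouse's other barcodes were −2.14 on the log2 scale in B6 2, against 0.15 to 1.10 in the other mice. Hashtag UMIs of tuft-like barcodes were 0.19 in B6 1, against −1.64 to −1.11 in the others. H2-D1 of tuft-like barcodes was −0.70 in B6 2, against 0.19 to 0.66. H2-K1 of secretory-like or enterocyte-hepatocyte-like barcodes was −0.033 in NOD 2, against 0.63 to 0.92. The proliferating-like value rests on 6 assigned barcodes in B6 2, of which 4 were strongly tagged, and on 4 in B6 1.

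Hashtags that the labels assign to no mouse of the pool gave 9911 UMIs over all 3447 barcodes, a signal outside the main measurement. Of these, 2069 lay in the 284 weakly tagged barcodes and 2999 in the 1193 strongly tagged ones. What these hashtags marked was not tested.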

How the results depend on the processing

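The leukocyte-like share of the weakly tagged barcodes stayed between 66.4% and 72.7% under 8 alternatives, the last of them with cluster 15 and chosen after seeing the data, and that of the strongly tagged set was 6.65% when weighted to the members' depth. A hashtag ceiling of 100 UMIs gave weakly tagged shares of 36.3% for type 1 dendritic cell-like (70.7% at 200), 32.9% for other myeloid or dendritic cell-like, 16.2% for plasma cell-like and 18.8% for proliferating-like barcodes, since fewer barcodes lie under it; Leiden resolution 2 gave 18.3% for the last. Without a filter on low counts 1642 genes were higher and 5663 lower, as more genes were tested. Within plasma cell-like barcodes, hashtag singlets alone gave 228 higher genes in place of 122, also chosen after seeing the data. Ighe was at −1.35 (log2) at a ceiling of 100, which leaves out the 1 barcode that holds it. Among 57 named genes, 723 of their alternative values moved little, 74 moved and 1, Ighe, reversed. All pseudogene types together, chosen after seeing the data, gave medians of 1.599% in members and 0.418% in strongly tagged barcodes.

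The mouse tests are paired because class and rest come from the same animal. Without the replicate block, 5 passed at an adjusted p of 0.0108 by the exact permutation test: Ptprc at −3.45 in tuft-like, −5.67 in secretory-like or enterocyte-hepatocyte-like, −4.50 in keratinocyte-like and −4.98 in ciliated-like barcodes, and B2m at −0.393 in keratinocyte-like ones. Leaving out each mouse in turn, after which 0.0625 is the smallest possible exact p, proliferating-like values ran from −0.0502 to 0.597 for hashtag UMIs, −0.0676 to 0.0609 for H2-D1 and −0.0218 to 0.0695 for B2m, and secretory-like hashtag values from −0.251 to 0.00772. H2-D1 of proliferating-like barcodes was 0.0689 over all passing barcodes. The cause of these changes was not tested.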
